A study of Homo sapiens with 24 samples.

Results

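The mRNAs of 9 RNA-binding proteins were followed in a table of Ago2 binding sites from untreated and arsenite-treated cells: IGF2BP1, IGF2BP2, IGF2BP3, PUM2, FMR1, FXR1, FXR2, ELAVL1 and CELF1. They were found by the gene name given for each peak, and 7 of the 9 were listed, with 130 of the 24041 peaks and 7 of the 6088 genes. IGF2BP2 and FXR2 were not listed, under these names or under the other names RefSeq gives them. The table held 46 peaks for IGF2BP1, 41 for CELF1, 20 for PUM2, 11 for FMR1, 6 for FXR1, 4 for ELAVL1 and 2 for IGF2BP3.

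The study used 293S cells, a line of human embryonic kidney origin grown as an adherent monolayer. One set of cells had no treatment and the other received 1 mM sodium arsenite for 30 min, a thiol-reactive agent that blocks translation initiation. Ago2, an Argonaute protein loaded with miRNAs, was crosslinked to RNA and immunoprecipitated (mRNA CLIP), RNA-seq libraries were made from the cells, and a separate CLIP band, called LO in the labels, served to measure the miRNAs. The 24 samples formed 6 groups of 4 replicates, and the labels do not say whether these were separate cultures. The deposited values cover all replicates together, so no replicate spread, test or sequencing depth can be given, and the RNA-seq values were not analysed here. All cells were of 1 line. Of 7 genes that mark this line's background 3 had peaks (VIM, NEFL and LIN28B), and NEFM, NEFH, KRT8 and KRT18 had none. Of 9 markers of other cell types 0 had a peak. A listed peak records Ago2 signal and not expression, so these counts do not identify the line.

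These proteins decide how long an mRNA lasts, where it goes and how often it is translated. The IGF2BP proteins bind and stabilise mRNAs such as MYC and ACTB and are mostly made in embryonic and tumour cells. Their own mRNAs are long-known targets of let-7, a miRNA family that rises as cells differentiate. Pumilio proteins bring the deadenylation machinery to mRNAs. FMR1, FXR1 and FXR2 encode the fragile X family of translational regulators, ELAVL1 encodes HuR, which protects mRNAs with AU-rich elements, and CELF1 encodes a protein that acts in splicing and in the decay of mRNAs with GU-rich elements.

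For 7 miRNA families whose sites are described in these mRNAs, 1 member each is shown with its mature sequence from RefSeq (build GRCh38.p14), 5′ to 3′, with the seed, bases 2 to 8, in capitals. The authors listed for each peak which of 50 families has a 7-nucleotide seed match in it, and 29 of the 50 families had a match in at least 1 of the 130 peaks.
hsa-let-7a-5p: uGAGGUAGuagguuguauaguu
hsa-miR-196b-5p: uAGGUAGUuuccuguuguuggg
hsa-miR-92a-3p: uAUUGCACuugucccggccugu
hsa-miR-301a-3p: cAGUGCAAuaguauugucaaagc
hsa-miR-19b-3p: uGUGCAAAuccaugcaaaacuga
hsa-miR-221-3p: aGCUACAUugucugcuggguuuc
hsa-miR-17-5p: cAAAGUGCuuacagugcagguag
The seeds of let-7 and miR-196 share 6 bases and are shifted by 1. A site that reads ACUACCUC pairs with either seed, and the peaks where the 2 families are listed together cannot be credited to one of them.

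For each peak the table lists a log average over the treatments and the log ratio between them, positive where the signal was higher with arsenite. Both are the authors' own peak values. Neither their log base nor their normalizer is stated there, so they are given as log units and not as folds. A log ratio compares CLIP signal, and how far it follows the amount of each mRNA was not tested. In these bulk samples, fewer cells of a type and less RNA per cell cannot be told apart. Of the 130 peaks, 80 (61.5%) had a log ratio above 0, where 70.3% of all peaks did. Their median was 0.35, with quartiles of -0.44 and 1.20, against 0.65, -0.16 and 1.49 over all peaks. A log ratio above 1 was listed for 37 of the 130 (39.1% of all peaks) and one below -1 for 10 (7.43% of all peaks). These pooled values rest on 2 genes, because IGF2BP1 and CELF1 hold 87 of the 130 peaks. Without both, 90.7% of the remaining 43 peaks lay above 0 and their median was 1.32.

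The genes fell in the order FXR1, FMR1, IGF2BP3, ELAVL1, PUM2, IGF2BP1 and CELF1. Their median log ratios were 1.62, 1.37, 1.19, 1.07, 0.95, 0.0096 and -0.12. The first 5 could not be separated by their spread, since the interquartile ranges of their peaks overlapped in every pair. IGF2BP1 and CELF1 also overlapped with each other. The interquartile ranges of IGF2BP1 (-0.55 to 0.58) and CELF1 (-0.61 to 0.58) lay below those of FXR1, FMR1, IGF2BP3 and PUM2 without overlap, and overlapped that of ELAVL1 (0.18 to 1.93). For IGF2BP3 and ELAVL1 these ranges come from only 2 and 4 peaks.

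**Figure D1:**
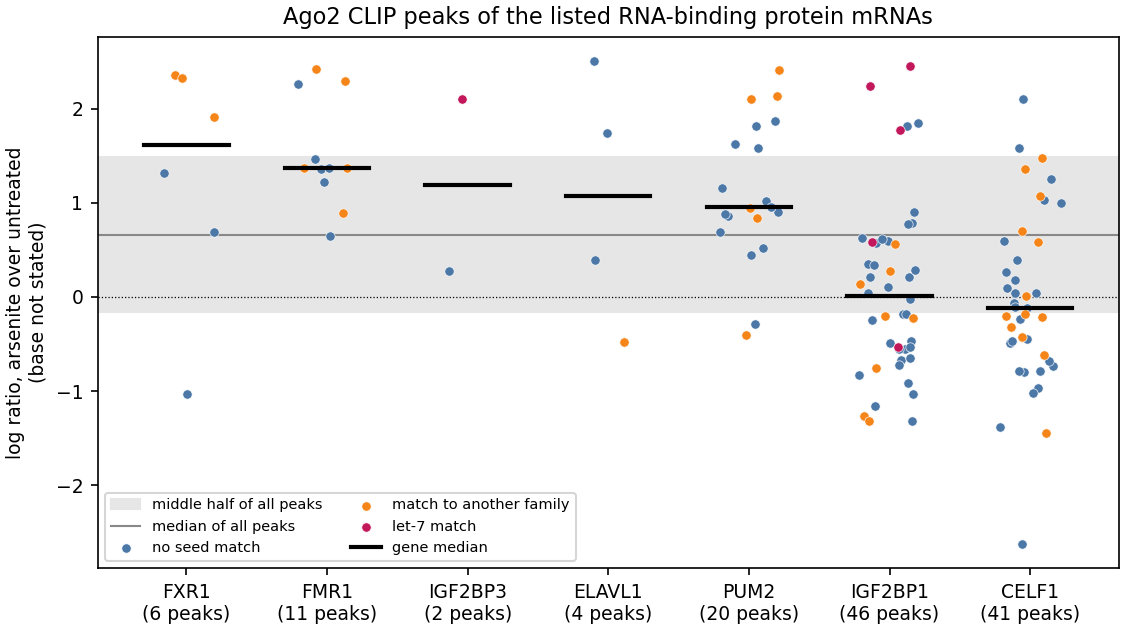
Arsenite over untreated log ratio of Ago2 CLIP signal (y axis, log units of unstated base) for each of the 130 peaks, by gene, coloured by seed match; black bars are gene medians and the grey band is the interquartile range over all 24041 peaks. All 11 FMR1 peaks lie above 0 (70.3% of all peaks), whereas IGF2BP1 and CELF1 spread around 0. Of the 5 let-7 peaks of IGF2BP1, 3 lie above 1.

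Genes with many peaks had lower medians throughout the table, and this goes with the low place of IGF2BP1 and CELF1 in the order above. It does not go with the top of that order, where FXR1 (6 peaks) and FMR1 (11) stood above IGF2BP3 (2) and ELAVL1 (4). The median of the gene medians was 1.01 over the 1165 genes with 2 peaks, 0.52 over the 329 genes with 11 to 20 peaks and -0.044 over the 24 genes with 41 to 309 peaks. IGF2BP1 and CELF1 belong to the last group, whose interquartile range ran from -0.39 to 0.31, and both lie inside it. Among all 6088 genes they ranked 16 and 23 by number of peaks. FMR1, with 11 peaks, lay above the interquartile range of the genes with 11 to 20 peaks (0.039 to 1.03), FXR1 lay above that of the 648 genes with 6 to 10 peaks (0.18 to 1.31), and PUM2 was inside its range. The part of peak number in the order of the genes was not tested.

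**Figure D2:**
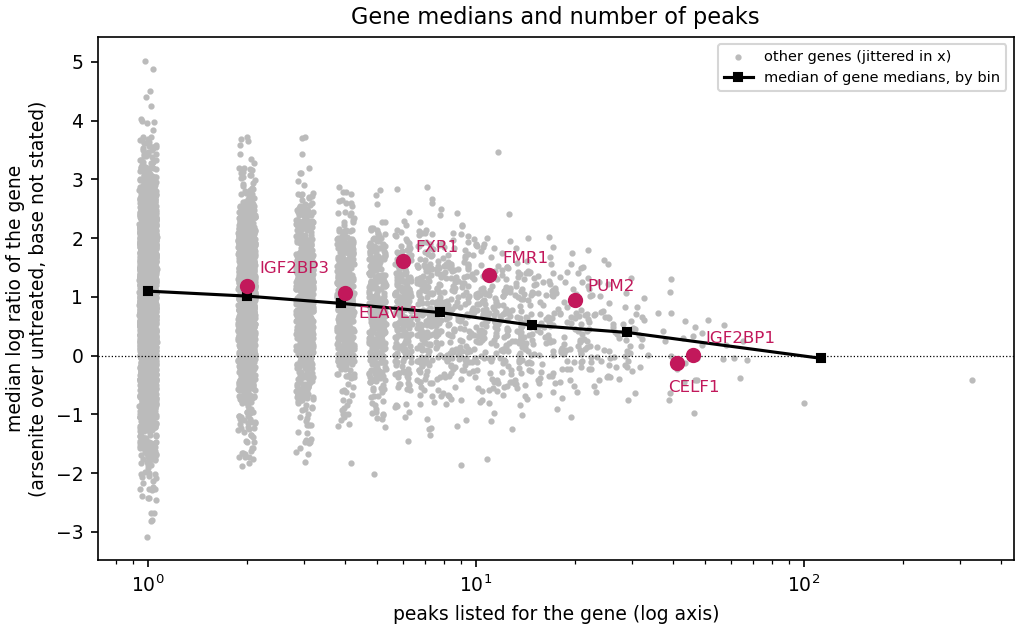
Median log ratio of each gene (y axis, log units of unstated base) against the number of peaks listed for it (x axis, log scale); grey points are other genes, black squares the medians of 7 bins drawn at the middle of each bin on the log axis, and the 7 listed genes are named. IGF2BP1 and CELF1 lie near the low end of the line, at 0.0096 and -0.12, and FXR1 and FMR1 lie above it, at 1.62 and 1.37.

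IGF2BP1, the oncofetal member that protects MYC mRNA, ranked 16 of 6088 genes by its number of listed peaks, some of which overlap, and most of its peaks had low log averages. Of its 46 peaks, 44 lay in the 3'UTR, 1 in the CDS and 1 in the 5'UTR. The log ratio was above 0 in 23 of the 46 (70.3% of all peaks). All 23 were 3'UTR peaks, and 76.2% of all 3'UTR peaks lay above 0. The log ratio was above 1 in 5 of the 46 (39.1% of all peaks) and below -1 in 5 (7.43% of all peaks). By log average, 37 of the 46 fell in the lowest quartile of the whole table, whose bound is -6.25.

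The highest log ratios within this mRNA were at peaks with a let-7 match. IGF2BP1 had 5 peaks with a let-7 match, the highest number among the 320 genes with such a peak, though 2 of the 5 overlap, and HMGA2 had 4. From 5′ to 3′ their log ratios were 2.24, 0.58, -0.53, 1.77 and 2.45. The peaks with 2.24 (chr17:47128413-47128465, plus strand, build hg19) and 2.45 (chr17:47132355-47132391) were the 2 with the highest log averages in the gene, -4.15 and -4.76, and also the 2 with the highest log ratios. The third, with 1.77 (chr17:47131717-47131796), had a log average of -6.05. All of these lie in the annotated 3'UTR of transcript NM_001160423.

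The other 2 let-7 peaks were weaker and went in opposite directions. They lay at chr17:47131033-47131082 and chr17:47131066-47131114, with log averages of -6.84 and -6.79 and log ratios of 0.58 and -0.53. They overlap by 17 nucleotides, and the table does not say whether their matches are the same site. The median over the 5 let-7 peaks was 1.77, against -0.18 over the other 41 peaks of the gene. Of these 41, 19 lay above 0 (70.0% of all peaks without a let-7 match). The let-7 peaks also had the higher median log average, -6.05 against -6.90. Over all 46 peaks of the gene log ratio rose with log average (Pearson r = 0.42). This value includes the 5 let-7 peaks, among them the 2 that are highest in both measures, and it was not computed without them. It therefore does not show a trend among the other 41, and the part of signal level in the let-7 difference was not tested. The 8 peaks with a match to another family and no let-7 match had a median of -0.21 and a highest value of 0.56. The 33 peaks without any match had a median of -0.021, and 2 of them reached 1.81 and 1.85.

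**Figure D3:**
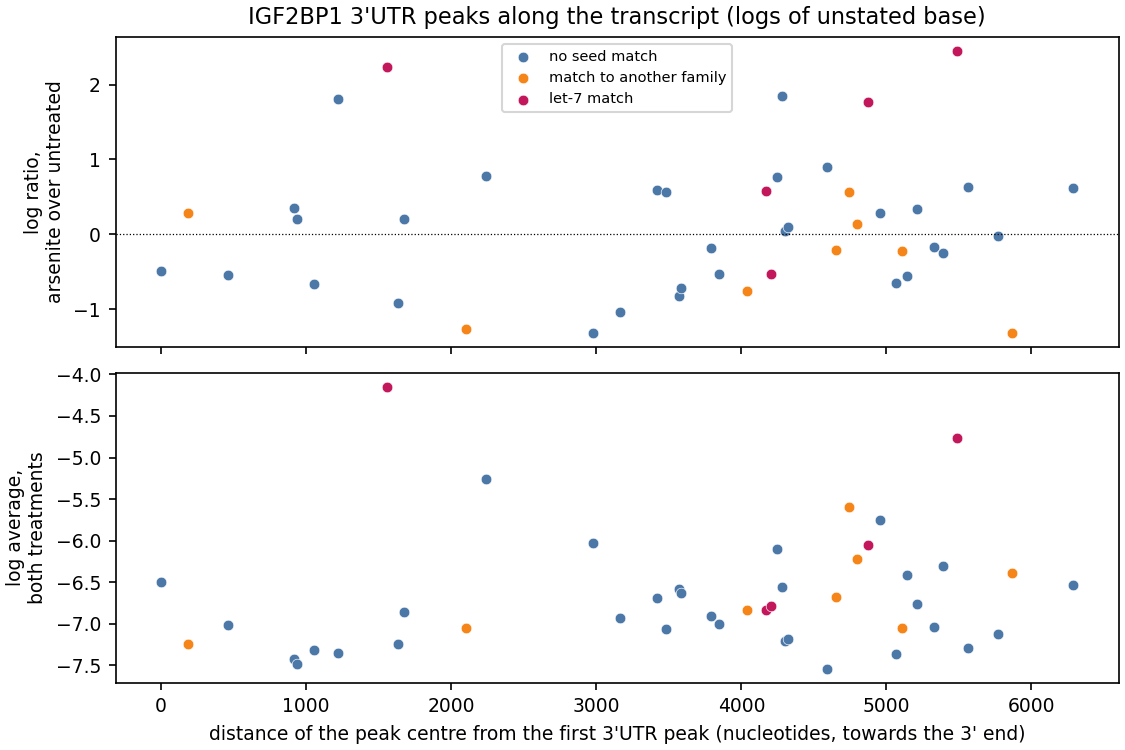
The 44 peaks in the 3'UTR of IGF2BP1 by distance of the peak centre from the first 3'UTR peak (x axis, nucleotides), with the arsenite over untreated log ratio (upper panel) and the log average over both treatments (lower panel), both in log units of unstated base. The let-7 peaks with log ratios of 2.24 and 2.45 also have the highest log averages, and the overlapping let-7 peaks in the middle lie at 0.58 and -0.53.

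IGF2BP3, a paralog of IGF2BP1 with a similar expression pattern, showed the same contrast with only 2 peaks, both in the 3'UTR on the minus strand. The peak with a let-7 match (chr7:23351410-23351435) had a log average of -4.19 and a log ratio of 2.10. The peak without a match (chr7:23351757-23351820) had -5.73 and 0.28. Over the whole table the 350 let-7 peaks had a median log ratio of 1.42, with an interquartile range of 0.70 to 2.13. Of the 350, 302 (86.3%) lay above 0. The 3 strongest let-7 peaks of these 2 genes, at 2.10, 2.24 and 2.45, lay from just inside the upper end of that range to above it. Of the other 3, all in IGF2BP1, the one at 1.77 lay inside the range and those at 0.58 and -0.53 lay below it. LIN28B and HMGA2, textbook let-7 targets chosen after their values were seen, are given as examples. The 2 let-7 peaks of LIN28B ran from 0.35 to 1.72 and the 4 of HMGA2 from 0.96 to 3.34.

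The let-7 and miR-196 matches coincided in most of these peaks. Of the 6 let-7 peaks in IGF2BP1 and IGF2BP3, 5 were also listed for miR-196, and the exception was the IGF2BP1 peak with 2.45. Over the table, 86 peaks matched both families and had a median of 1.76, 264 matched let-7 but not miR-196 with a median of 1.32, and 118 matched miR-196 but not let-7 with a median of 1.20. The miRNAs themselves differed widely in amount. In the authors' deposited table of the LO band, miR-196b-5p had means of 2333835 untreated and 2301175 with arsenite (log2 fold change -0.02), and let-7a-5p had means of 19128 and 21593 (log2 fold change 0.17, p = 0.429, adjusted p = 1 by DESeq). The summed means of the 9 let-7 family members listed in the authors' deposited table were 57116 untreated and 63675 with arsenite, a log2 ratio of 0.16.

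**Figure D4:**
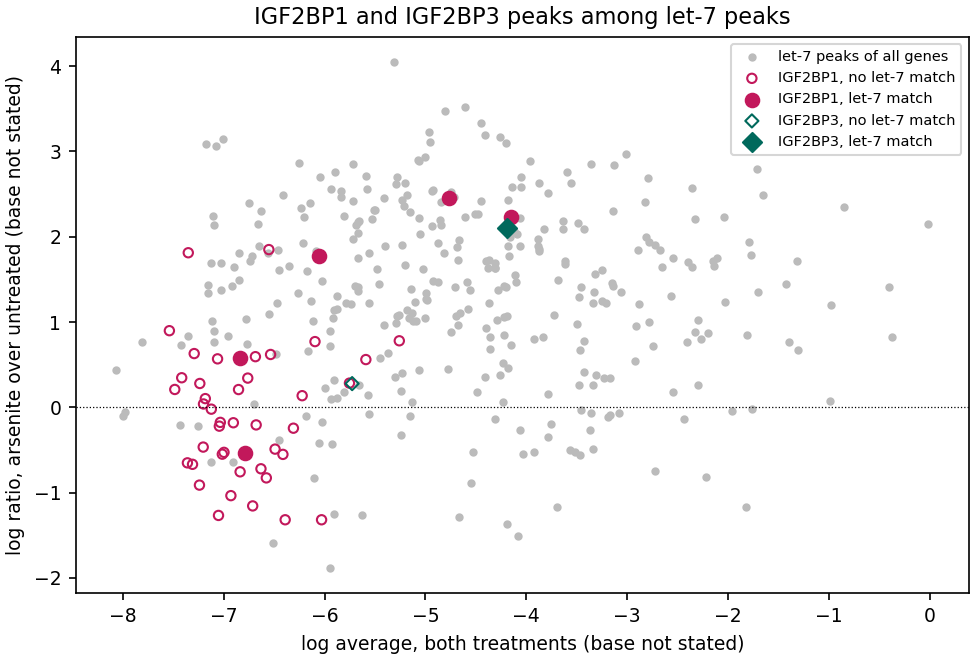
Arsenite over untreated log ratio (y axis) against log average (x axis), both in log units of unstated base, for the 350 let-7 peaks of all genes (grey) and all peaks of IGF2BP1 and IGF2BP3, filled where they match let-7. The 3 let-7 peaks of highest log average in these 2 genes lie between 2.10 and 2.45, and the open symbols of IGF2BP1 lie lower and further left.

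PUM2, a Pumilio protein that represses mRNAs with a Pumilio element, had log ratios above 0 in 18 of its 20 peaks (70.3% of all peaks). The median over its peaks was 0.95, with a range of -0.41 to 2.41. All 14 peaks in its 3'UTR lay above 0 (76.2% of all 3'UTR peaks), from 0.52 to 2.41, an unbroken run along the transcript. The 6 CDS peaks were more mixed, with 4 above 0 (68.4% of all CDS peaks) and a median of 0.70. The highest value belonged to the peak nearest the 3′ end (chr2:20448620-20448683, minus strand), which matches miR-196 without let-7. The lowest, -0.41, was a CDS peak with a miR-15/miR-16 match (chr2:20497327-20497390). Its peak of highest log average, -5.65, matched no family and had a log ratio of 1.62 (chr2:20449886-20449977). In the 3'UTR, 5 PUM2 peaks with a seed match had a median of 2.11 and 9 without one a median of 0.90. Their ranges overlapped, from 0.84 to 2.41 with a match and from 0.52 to 1.87 without. The signal was low, with 17 of the 20 PUM2 peaks in the lowest quartile of log averages over the table.

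In the fragile X family, 5 of the 6 FXR1 peaks and all FMR1 peaks lay above 0 (70.3% of all peaks). FMR1, whose loss causes fragile X syndrome, had all 11 peaks above 0, from 0.65 to 2.42, and 9 of them above 1 (39.1% of all peaks). Values in its CDS and 3'UTR were alike, with medians of 1.36 over 4 peaks and 1.37 over 7. The highest value, 2.42, was at a 3'UTR peak with a miR-221/miR-222 match (chrX:147030983-147031008, plus strand), followed by 2.29 at a peak with a miR-130/miR-301 match (chrX:147031093-147031139). The third, 2.26, was at a CDS peak without any match (chrX:147030265-147030335). The lowest, 0.65, was also a CDS peak (chrX:147026498-147026540). The peak of highest log average, -5.24, matched no family and had 1.47. Its 5 matched peaks had a median of 1.37 and its 6 unmatched peaks one of 1.36. In the 3'UTR alone the medians were 1.83 over 4 matched and 1.37 over 3 unmatched peaks.

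FXR1, the autosomal relative that is prominent in muscle, split by region. Its 4 peaks in the 3'UTR had log ratios of 1.32, 1.91, 2.36 and 2.32 from 5′ to 3′, and its 2 CDS peaks had -1.03 (chr3:180669124-180669164, plus strand) and 0.69. The highest log ratio was also at the peak of highest log average, -5.03 (chr3:180694460-180694521), which matches miR-130/miR-301, miR-19 and miR-151a-3p. The next highest, 2.32, was at the miR-25/miR-92 match (chr3:180694881-180694940). In FXR1 the median was 2.32 over 3 matched peaks and 0.69 over 3 unmatched peaks. Because 2 of the latter are the CDS peaks, match and region cannot be told apart by these medians. Within the 3'UTR the 3 matched peaks, from 1.91 to 2.36, lay above the unmatched one at 1.32, but that comparison rests on 1 unmatched peak.

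FMR1 and FXR1 shared 3 seed families that the other 5 listed mRNAs did not match, miR-25/miR-92, miR-130/miR-301 and miR-19. Both had a miR-25/miR-92 and a miR-130/miR-301 match, as did 34 genes in the table, which are 8.67% of the 392 genes with a miR-25/miR-92 peak and 9.04% of the 376 with a miR-130/miR-301 peak. At miR-130/miR-301 the log ratios were 2.29 in FMR1 and 2.36 in FXR1, against a median of 1.55 over all 417 such peaks. At miR-25/miR-92 they were 1.37 and 2.32, against 1.72 over 430 peaks. At miR-19 the log ratios were 0.89 in FMR1 and 2.36 in FXR1, against 1.57 over 556 peaks. The FXR1 value is that of the same peak as its miR-130/miR-301 match. The seeds of miR-130/miR-301 and miR-19 overlap when shifted, so a site can pair with either. That FXR1 peak therefore cannot be credited to one of them, whereas in FMR1 the matches lay at separate peaks. On Ago2, the authors' deposited table gave miR-301a-3p means of 33861 untreated and 41800 with arsenite (log2 fold change 0.30, adjusted p = 1 by DESeq). For miR-92a-3p the authors' deposited table gave means of 209938 and 236397 (log2 fold change 0.17, adjusted p = 1 by DESeq). For miR-19b-3p the authors' deposited table gave 851532 and 780741, a log2 fold change in the other direction (-0.13, adjusted p = 1 by DESeq).

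ELAVL1, the HuR gene, had only 4 peaks, all in the 3'UTR on the minus strand of chromosome 19. From 5′ to 3′ their log ratios were 1.74, 0.39, -0.48 and 2.51. The last (chr19:8026865-8026891) was the highest of all 130 peaks and matched no family. The only negative value belonged to the peak with the highest log average, -4.91 (chr19:8027731-8027815), which was also the only one with a seed match, to miR-338-3p. The direction for ELAVL1 therefore depends on the summary: the median was 1.07 and the strongest peak was at -0.48.

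CELF1 had the lowest median of the 7 genes. Of its 41 peaks, 39 lay in the 3'UTR. A log ratio above 0 was listed for 18 of the 41 (43.9%, against 70.3% of all peaks). One above 1 was listed for 7 (39.1% of all peaks) and one below -1 for 4 (7.43% of all peaks). The range was the widest of the set, from -2.62 (chr11:47492056-47492109, minus strand, no match) to 2.10 (chr11:47488729-47488784, no match). The peak of highest log average, -5.33, had -0.61 and matched miR-10, miR-125 and miR-23 (chr11:47488786-47488869). The longest run of neighbouring 3'UTR peaks below 0 held 6 peaks, from -1.02 to -0.23 (chr11:47489252-47489879), and its first peak in the 5′ to 3′ direction is one that matches miR-17.

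A seed match did not go with a higher value in CELF1. Its 13 matched peaks had a median of -0.18 and its 28 unmatched peaks one of -0.11. The matched peaks ran from -1.45 to 1.48, the highest being 1.48 at a miR-210 match and 1.35 at a miR-10 match. At miR-17 and miR-221/miR-222 CELF1 lay below the medians of all peaks with such a match. At its miR-17 match CELF1 had -0.32, IGF2BP1 had 0.28 and FMR1 had 1.37, against a median of 1.67 over the 716 miR-17 peaks of the table, whose interquartile range ran from 1.00 to 2.24. At the miR-221/miR-222 match CELF1 had 0.58 and FMR1 2.42, with a median of 1.32 over 111 peaks. These are single peaks, and whether the gene or the site sets their order was not tested.

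**Figure D5:**
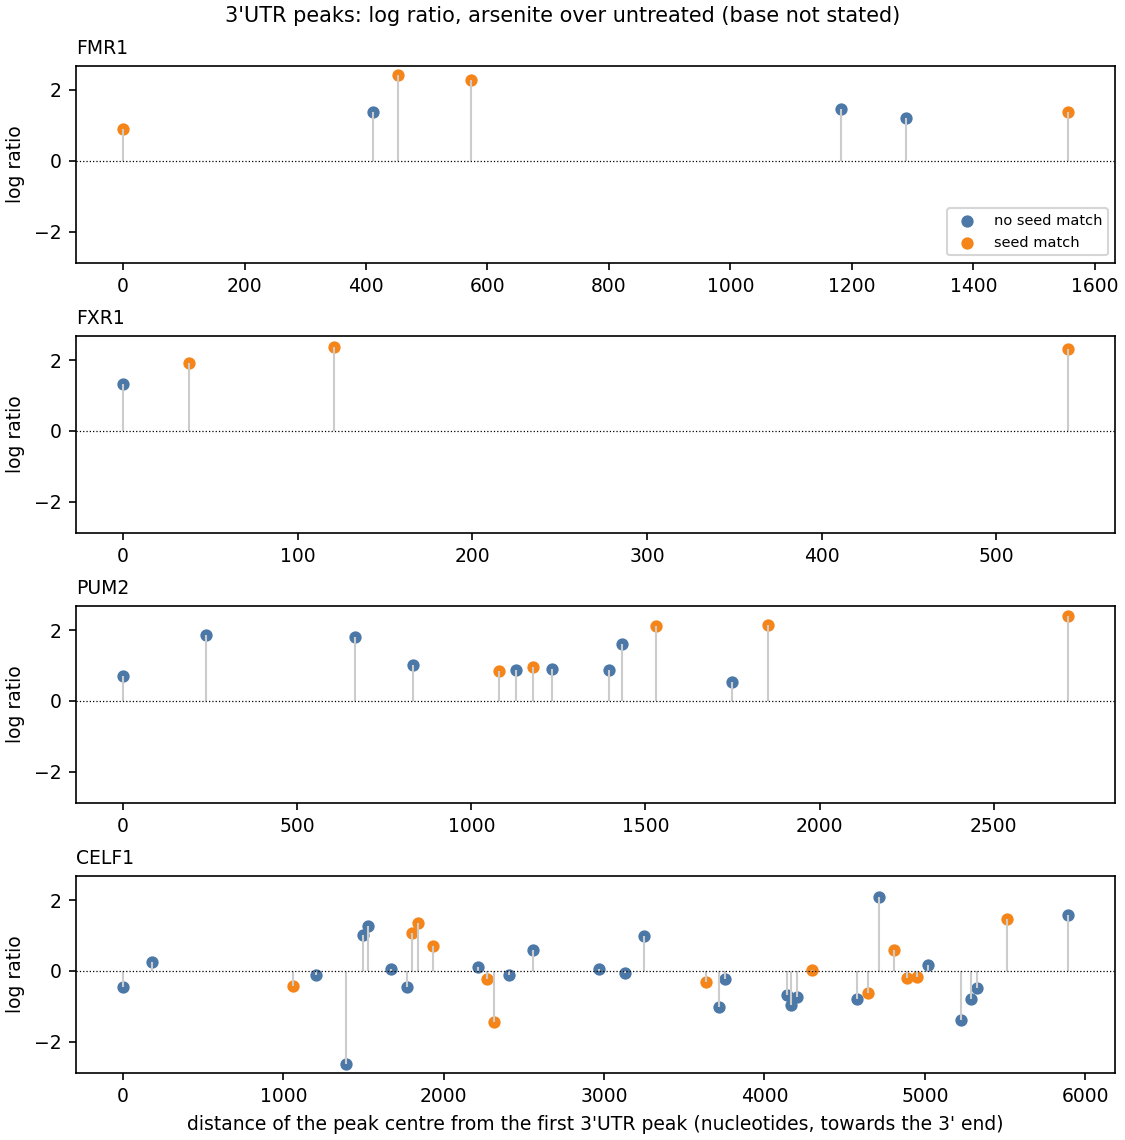
Arsenite over untreated log ratio (y axes, log units of unstated base) of the 3'UTR peaks of FMR1, FXR1, PUM2 and CELF1 by distance of the peak centre from the first 3'UTR peak (x axes, nucleotides, a separate scale for each gene), with peaks that match a listed seed family in orange. All 7, 4 and 14 peaks of the first 3 genes lie above 0 (76.2% of all 3'UTR peaks), and the 39 of CELF1 run from -2.62 to 2.10.

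Over the 7 mRNAs together, the median was 0.64 over the 42 peaks that hold a seed match (32.3%, against 31.5% of all peaks) and 0.27 over the other 88. Over all peaks of the table these medians were 1.06 and 0.48. Of the 42, 26 came from IGF2BP1 and CELF1. Within single genes the difference went both ways: over all regions, matched peaks had the higher median in IGF2BP1, IGF2BP3, PUM2 and FXR1, the lower one in CELF1 and ELAVL1, and nearly the same in FMR1.

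Neighbouring peaks give an idea of how far single values can be read. In 25 pairs of overlapping peaks in IGF2BP1, CELF1 and PUM2 the log ratios differed by a median of 0.31 and by up to 1.81, and 21 pairs lay on the same side of 0. In 88 pairs of neighbours within 1000 nucleotides that did not overlap the median difference was 0.80, and 48 pairs lay on the same side. Over the whole table these medians were 0.39 and 0.80. There, 2946 of 3675 overlapping pairs and 6745 of 9730 pairs that did not overlap lay on the same side. Overlapping peaks may share reads. Most of the 130 peaks had a low signal: 66.9% were in the lowest quartile of log averages, 5 peaks in the third and 0 in the highest, and their median log average was -6.57 against -5.18 over all peaks. Over all peaks the median log ratios by quartile of log average, from the lowest, were 0.59, 0.83, 0.66 and 0.53.

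Taking the peak of highest log average for each gene, 5 of the 7 genes lay above 0 (79.9% of all genes) and 5 above 1 (53.1% of all genes), and 0 of the 7 lay below -1 (4.52% of all genes), with a median of 1.62 against 1.10. The values were 2.36 for FXR1, 2.24 for IGF2BP1, 2.10 for IGF2BP3, 1.62 for PUM2, 1.47 for FMR1, -0.48 for ELAVL1 and -0.61 for CELF1. IGF2BP1 moved most, from a gene median of 0.0096 to 2.24 at its let-7 peak.

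Related genes were described by the same measure, by which 79.9% of all genes lay above 0 and 53.1% above 1. Of 14 paralogs and partners 5 were listed, and 4 of the 5 lay above 0 and above 1. ELAVL2, a neuronal Hu protein gene, had 2.07, CELF2 2.03, NUFIP2 and CYFIP1, which encode FMRP-interacting proteins, 1.91 and 1.17, and NANOS1, which encodes a Pumilio partner, -0.96. The paralogs of the 2 members with negative values here, ELAVL2 and CELF2, were thus above 0. Of 8 partners of IGF2BP1 in ribonucleoprotein particles 7 were listed and 7 lay above 0, 3 of them above 1, with a median of 0.77. Among them DHX9, an RNA helicase, had 1.21, HNRNPU, a nuclear scaffold protein, 0.56, LIN28B, which blocks let-7 maturation, 1.72 and PABPC1, the poly(A)-binding protein, 0.087.

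Of 31 other regulators of mRNA stability and localisation 26 were listed, with a median of 0.66 against 1.10 over all genes. Of the 26, 20 lay above 0 (79.9% of all genes), 12 above 1 (53.1% of all genes) and 0 below -1 (4.52% of all genes). CAPRIN1, a stress granule protein, had 2.46, CPEB4 1.56, CPEB2 -0.035 and CPEB3 -0.47, the last 3 being cytoplasmic polyadenylation element-binding proteins. Their gene medians over all peaks were 0.46, 1.56, 1.43 and 0.54. The direction for CPEB2 and CPEB3 therefore depends on the summary, and the value of CAPRIN1 is much lower by its median. Of 14 published targets of the 9 proteins 12 were listed, with a median of 1.48. Of the 12, 11 lay above 0 (79.9% of all genes) and 8 above 1 (53.1% of all genes). ACTB, the zipcode-bearing target of IGF2BP1, had 0.34, BTRC 2.02, CCNA2 1.94 and CCND1 1.44. Here the gene medians were 0.94 for ACTB, 1.57 for BTRC and 0.60 for CCNA2. For CCND1 the gene median was only 0.035 over 22 peaks, so these values, too, are those of 1 peak each.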

How the data were processed

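Ago2 CLIP, LO band CLIP and RNA-seq libraries were made from 4 replicates per treatment. Bowtie 0.12.8, TopHat, DESeq and hg19 are named in the submitters' processing notes, without their roles. How peaks were called, filtered and normalized is not given in the sources used here. Per the file headers, the authors deposited for each peak the log average abundance and the arsenite over untreated log ratio, normalized and over all replicates, handled here as scores because the log base is not stated. In the miRNA table, named by miRBase 18, the authors deposited signal values (means of normalized read counts per treatment), their ratio, its log2 value, and DESeq p-values. No column held a single sample, so no replicate test was run, depth is unknown, and results are medians, counts and ranges.

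Rows were chosen by gene name. Peak length is end minus start plus 1, and coordinates are as deposited. All members were named, with their peaks of highest log average and of highest and lowest log ratio. Other peaks, LIN28B and HMGA2 at let-7, and the runs were chosen after their values were seen. Pathway lists were given by the peak of highest log average, and 1 gene of the paralog list is not reported here. The members and lists were chosen with earlier results of these data known. Values over peaks are not values over replicates. Mature miRNA sequences matched by exact name. Calculations used Python 3.11.15, pandas 2.3.3 and numpy 2.4.6, and the summaries were tested on simulated data. Alternatives were 1 peak per gene, centring, a filter on log averages, 3'UTR peaks only, merged overlaps and leaving out single peaks. Leaving out IGF2BP1, CELF1 or let-7 peaks, and the median of the gene medians, were added after the data were examined.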

Additional observations from a re-analysis of the deposited data

How the results depend on the processing

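Of 59 alternative values, 44 kept their direction and stayed inside an interval over peaks. This was a 95% interval that treats peaks as independent or, below 6 peaks, the range of the peaks. With 6 peaks, as in FXR1, the interval also spanned the whole range. A median of some of a gene's peaks cannot leave that range. Alternatives for IGF2BP3, ELAVL1 and FXR1 could therefore at most change sign and could not otherwise count as moved. The same holds in every gene for leaving out single peaks, which shifts a median only to values next to it. For IGF2BP3 and ELAVL1 the 3'UTR setting removed no peak. The count of 44 therefore includes values that could not have moved. The share of member peaks above 0 was 61.5%, and it became 71.4% with 1 peak per gene, 39.2% with the median of all peaks subtracted, 69.7% without CELF1 and 90.7% without CELF1 and IGF2BP1. The median log ratio of member peaks, 0.35, became 1.62 with 1 peak per gene, 0.69 without IGF2BP1, 1.32 without both, 1.07 as the median of the gene medians, and turned to -0.31 after subtraction of the median of all peaks, so its sign rests on the authors' zero point. For IGF2BP1 the median of 0.0096 became 2.24 at the peak of highest log average, 0.77 without the lowest quartile of log averages (9 peaks left) and -0.18 without the let-7 peaks, and leaving out single peaks gave -0.021 to 0.040, so its sign is not settled. ELAVL1 turned from 1.07 to -0.48 and CELF1 moved from -0.12 to -0.61 at the peak of highest log average. Matched minus unmatched peaks gave a difference in medians of 0.37, which kept its direction and ran from 0.40 to 0.99 under the alternatives. No paired analysis was possible because no table used here holds values of single samples, and for the same reason no replicate could be left out. Depth is unknown, so the smallest difference these peaks could show cannot be given.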
